A study of Rattus norvegicus with 91 samples.

Results

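Rbp4, Rdh16, Aldh1a1, Adh1 and Adh4, genes of vitamin A and alcohol metabolism, were followed in rat liver. They are 5 of the 10621 genes that have a probe set with 1 gene symbol on the arrays. They were chosen by symbol, and with their differences from control already known, so those differences are given as values with no test. Adh1 is annotated as Adh1c, of which Adh1 is a synonym in RefSeq, and is called Adh1 here. The 5 genes were read by 9 probe sets on the array of one course and 5 on that of the other, and all 14 passed the filter on low signal. Each gene is described by its brightest probe set unless another is named.

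The animals were Wistar rats, and all arrays, controls included, carry a label of 50 mg/kg methylprednisolone, a synthetic glucocorticoid. The series asked how liver transcripts move over time after this drug. In the table called the short course here, 47 arrays hold 16 treated times, 0.25 to 72 h, and 4 controls (time 0), with 2 or 3 arrays each. The long course has 44 arrays of a larger design, with 4 controls and 10 times from 6 to 168 h at 4 arrays each. The labels used here state no route, dosing schedule, vehicle, age, sex or adrenal status. Nor do they tie an array to an animal, so errors and p-values here cover the spread from array to array, which may be technical. Times were averaged in windows. The short course has windows at 0.25-0.75 h (9 arrays), 1-2 h (5), 4-8 h (17), 12-18 h (5) and 30-72 h (7). The long course has windows at 6-18 h (16 arrays), 24-48 h (12) and 72-168 h (12). A comparison of 2 treated windows is the difference of 2 control differences that were known when the genes were chosen. For all 5 genes its p-value therefore sets a size against the spread of arrays and is no independent test. Signals are brightness values on a linear scale. Differences are on the scale of log2(signal + 32), with the standard error, and a bracket may end with how many arrays lay on that side of the other group's mean. Each course has its own scale, so levels are compared neither across courses nor across probe sets.

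The liver stores most of the body's vitamin A as retinyl ester in stellate cells, while hepatocytes make the plasma carrier that takes retinol to other tissues. Retinol is oxidised to retinal and then to retinoic acid, the ligand of the nuclear retinoic acid receptors. The first, reversible step is carried out by membrane-bound retinol dehydrogenases and, in solution, by some alcohol dehydrogenases. The second is irreversible and is carried out by retinal dehydrogenases. The same cytosolic alcohol and aldehyde dehydrogenases also handle ethanol, other alcohols and their aldehydes, so these genes stand where both pathways meet. Rbp4 encodes the plasma carrier, Rdh16 a retinol dehydrogenase, Aldh1a1 a retinal dehydrogenase, and Adh1 and Adh4 are alcohol dehydrogenases that also accept retinol.

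Adh1 and Adh4 lie in a cluster of alcohol dehydrogenase genes on rat chromosome 2, with 2 protein-coding genes between them in the RefSeq order and with Adh5 next to Adh4. Rdh16 lies on chromosome 7, with 1 protein-coding gene between it and Rdh7. The 250 bases before the annotated start of 4 of the 5 genes are shown, because the genes moved at different times under one drug and these are the nearest regulatory sequences. They come from RefSeq on build GRCr8, each 5′ to 3′ on the gene's own strand. Rbp4 was read on the minus strand at chr1:245313552-245313801, Aldh1a1 on the plus strand at chr1:227537370-227537619, Adh1 on the plus strand at chr2:229470453-229470702 and Adh4 on the plus strand at chr2:229621842-229622091. Capitals mark a match to a searched motif.
Rbp4: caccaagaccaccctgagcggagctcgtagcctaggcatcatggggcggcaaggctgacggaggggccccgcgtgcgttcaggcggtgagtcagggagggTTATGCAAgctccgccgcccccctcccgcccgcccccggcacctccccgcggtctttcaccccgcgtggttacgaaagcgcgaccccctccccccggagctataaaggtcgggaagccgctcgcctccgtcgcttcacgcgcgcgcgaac
Aldh1a1: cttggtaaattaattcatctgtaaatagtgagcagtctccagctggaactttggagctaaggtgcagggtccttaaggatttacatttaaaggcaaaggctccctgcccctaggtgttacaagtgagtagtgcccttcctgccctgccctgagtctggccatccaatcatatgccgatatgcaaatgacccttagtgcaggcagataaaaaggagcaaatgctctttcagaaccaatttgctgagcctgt
Adh1: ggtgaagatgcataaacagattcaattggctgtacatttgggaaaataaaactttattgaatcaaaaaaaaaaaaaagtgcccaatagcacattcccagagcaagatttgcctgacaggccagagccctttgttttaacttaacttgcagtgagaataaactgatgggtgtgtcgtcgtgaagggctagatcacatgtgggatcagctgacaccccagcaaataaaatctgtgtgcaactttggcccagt
Adh4: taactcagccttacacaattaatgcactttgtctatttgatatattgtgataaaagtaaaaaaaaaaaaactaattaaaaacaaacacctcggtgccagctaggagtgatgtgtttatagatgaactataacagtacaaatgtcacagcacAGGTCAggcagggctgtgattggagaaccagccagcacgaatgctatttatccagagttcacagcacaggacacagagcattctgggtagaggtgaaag
Rdh16 is named only.

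Both strands were searched for 4 motifs in 33469 promoters of this length. The palindrome bound by the glucocorticoid receptor, AGAACA and TGTTCT with 3 free bases between, was in 4 of them, or 0.012%, and in none of the 4 shown. TGTTCT alone, which the palindrome contains, was in 17.5% of all promoters and in none of the 4. TTGCNNAA, a C/EBP site, was in 9.22% of all promoters and once in Rbp4, on the opposite strand. AGGTCA, the core bound by many nuclear receptors, was in 14.1% of all promoters and once in Adh4. No motif of the 4 was found in the windows of Aldh1a1 and Adh1. A match is a description of letters only, and no match says only that these letters are not in this window.

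Some arrays stood apart. The mean correlation of an array with the others of its course ran from 0.865 to 0.929 in the short course and from 0.887 to 0.941 in the long course. It was under 0.9 in 9 short-course arrays, 2 of them controls, and in 1 long-course array, 96 h replicate 3. Spike-in controls parted the long course into 15 bright and 29 dim arrays, the bright ones being every replicate 4 with 4 others. Where a call named below ended without the 9 arrays, or among the dim arrays alone, both values are given.

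**Figure D1:**
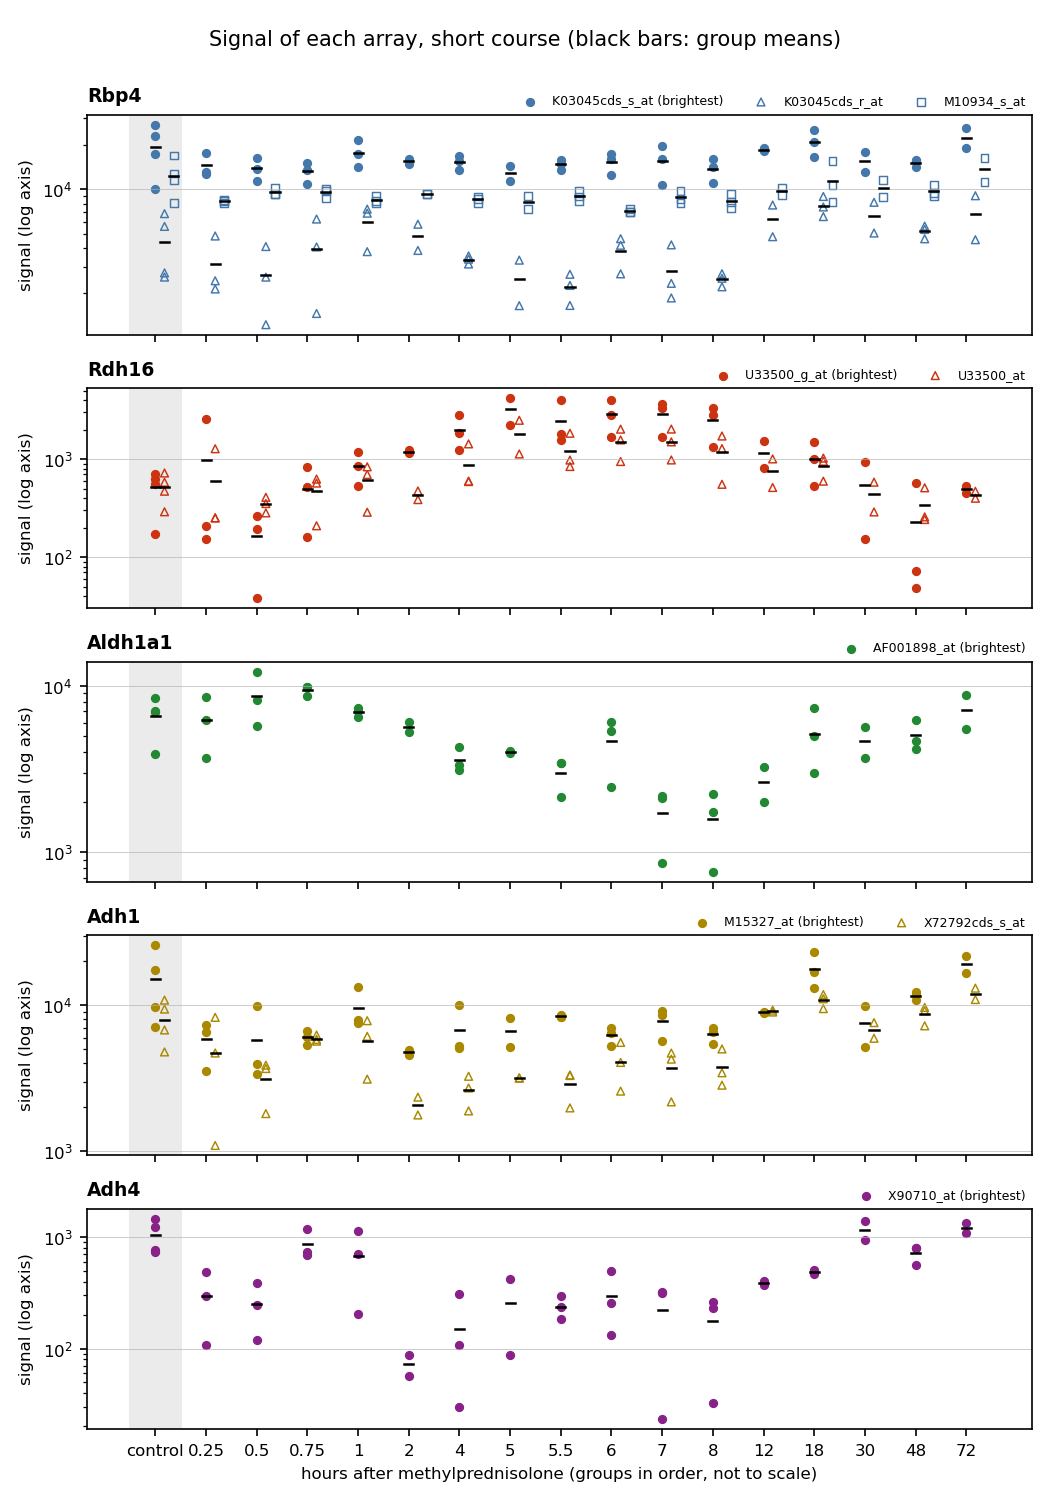
Signal of each array in the short course for the 5 genes, on a log axis, with groups in order of time from control to 72 h and black bars at the group means. Filled points are the brightest probe set and open points the others; Rdh16 is high and Adh4 and Aldh1a1 are low at 4-8 h, with all 3 near the control values at 72 h.

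Rbp4, the retinol carrier of plasma, showed small differences in the first course. In the short course its controls gave signals of 10050, 17235, 27297 and 22816. At 5 h the arrays gave 14351 and 11284, at 18 h 16362, 20702 and 25245, and at 72 h 18813 and 25698. The controls alone spanned more than the treated groups did, and no window was free of overlap with them. Mean signal was 19349 ± 7442 in the controls (SD, n = 4) and 14619 ± 2395 at 4-8 h (n = 17). Differences from control were -0.41 ± 0.18 at 0.25-0.75 h, -0.34 ± 0.17 at 4-8 h and -0.08 at 30-72 h, and with quantile normalization the first 2 became 0.09 and 0.01. A second probe set, M10934_s_at, was 0.52 ± 0.13 log2 units below control at 4-8 h, with 7062 to 9784 against controls of 8110 to 16867, and K03045cds_r_at was 0.57 ± 0.31 below.

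Between treated windows, which leave the controls out but share the treated arrays with the values that chose the genes, Rbp4 did not pass from 0.25-0.75 h to 4-8 h (0.07 ± 0.13, limma adjusted p = 0.774). It was higher at 12-18 h than at 4-8 h by 0.44 ± 0.16 (adjusted p = 0.0311, 5 of 5 arrays), and the other 2 probe sets were higher too, by 0.32 (adjusted p = 0.0317) and 1.32 (adjusted p = 0.000721). For K03045cds_r_at those windows did not overlap, at 4784 to 8930 against 1641 to 4639. The call of the brightest probe set was lost with quantile normalization (0.14, adjusted p = 0.3), without the 9 arrays (0.33, adjusted p = 0.0552) and without any of 5 single arrays, 12 h replicates 1 and 2 (adjusted p = 0.106 and 0.0894), 18 h replicates 2 and 3 (0.055 and 0.0993) and 5 h replicate 2 (0.0529). At 30-72 h against 4-8 h the brightest probe set did not pass (0.26 ± 0.14, adjusted p = 0.154), while M10934_s_at (0.40, adjusted p = 0.00237) and K03045cds_r_at (1.13, adjusted p = 0.000569) did.

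Late in the long course Rbp4 was higher. Its controls gave 6820, 5395, 6104 and 10574. At 6 h the arrays gave 5938, 5059, 5609 and 8866, at 96 h 7064, 9052, 15283 and 11526, and at 168 h 5381, 11117, 11341 and 12328. Arrays above the top control appear from 36 h on, but arrays below the control mean remain at 168 h. The difference from control was -0.13 at 6-18 h, 0.27 at 24-48 h and 0.41 at 72-168 h, each with an error of 0.22 to 0.23. Rbp4 was higher at 72-168 h than at 6-18 h by 0.54 ± 0.15 (adjusted p = 0.0074, 10 of 12 arrays), which was 1.46-fold, and did not pass at 24-48 h (0.39 ± 0.15, adjusted p = 0.063), though it did with a replicate block (adjusted p = 0.00784). The step to 24-48 h did pass when 1 of 8 arrays was left out, replicate 4 at 6, 10, 13, 18 or 72 h or replicate 1 at 36, 48 or 168 h (adjusted p 0.035 to 0.0495). The spike-in batches moved with this result. Among the bright arrays Rbp4 gave 8055 to 8866 at 6-18 h and 11117 to 15283 at 72-168 h, and among the dim ones 4932 to 7146 and 5381 to 9052. With the batch in the fit the late rise was 0.37 (adjusted p = 0.000723), and among the dim arrays alone 0.20 (adjusted p = 0.283). The step to 24-48 h was 0.34 with the batch (adjusted p = 0.00154) and 0.33 among the dim arrays (adjusted p = 0.0172).

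Rdh16, a short-chain dehydrogenase of the endoplasmic reticulum, stood above control in both courses. Short-course controls gave 712, 171, 559 and 634. At 0.5 h the arrays gave 38.2, 195 and 265, at 1 h 1186, 530 and 844, and at 2 h 1153 and 1242. At 4 h they gave 1245, 2831 and 1859, at 5 h 4195 and 2252, at 6 h 2839, 1687 and 4052, and at 8 h 1327, 2847 and 3342. Every 4-8 h array lay above every control. One early array, 0.25 h replicate 1, was as bright at 2581, beside 155 and 211 in its group. The signal then fell back, to 822 and 1517 at 12 h, 72.2, 572 and 48.2 at 48 h and 453 and 531 at 72 h. Window means were 519 ± 240 in the controls (SD, n = 4), 2621 ± 1018 at 4-8 h (n = 17) and 394 ± 321 at 30-72 h (n = 7).

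Against control, Rdh16 differed by -0.56 ± 0.57 at 0.25-0.75 h, 1.04 ± 0.65 at 1-2 h (5 of 5 arrays), 2.34 ± 0.53 at 4-8 h (5.06-fold, 17 of 17), 1.09 ± 0.65 at 12-18 h and -0.56 ± 0.60 at 30-72 h. The highest single time was 5 h, at 2.65 ± 0.83. The other probe set, U33500_at, stood at -0.01 at 1-2 h, where it did not differ as the brightest probe set did, and at 1.27 ± 0.35 at 4-8 h (17 of 17). Its 4-8 h signals, 554 to 2493, overlapped its controls, 291 to 723. Between treated windows Rdh16 rose from 0.25-0.75 h to 4-8 h by 2.90 ± 0.40 (7.48-fold, adjusted p = 4.07e-06, 17 of 17 arrays) and fell by 2.89 ± 0.44 from 4-8 h to 30-72 h (adjusted p = 3.39e-06, 7 of 7), with no overlap of the latter windows, 1245 to 4195 against 48.2 to 927. U33500_at passed both as well (1.54 ± 0.26, adjusted p = 8.55e-05, and -1.60 ± 0.29, adjusted p = 4.85e-05). The first part of the fall, at 12-18 h, was less secure. It was -1.25 ± 0.50 (adjusted p = 0.047), U33500_at did not pass (-0.64, adjusted p = 0.121), and the call ended under 7 other settings (adjusted p 0.0553 to 0.132), among them without the 9 arrays (-1.26, adjusted p = 0.101) and with a replicate block (adjusted p = 0.0586), and without any 1 of 22 arrays, the highest adjusted p being 0.207 without 12 h replicate 1.

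Rdh16 stayed up to the end of the long course. Controls gave 55.5, 147, 51.3 and 146. At 6 h the arrays gave 724, 654, 460 and 1385, at 13 h 1003, 875, 987 and 1198, and at 24 h 300, 738, 326 and 451. At 72 h they gave 635, 840, 872 and 1244, and at 168 h 794, 634, 549 and 959. All 40 treated arrays lay above the brightest control. Window means were 915 ± 266 at 6-18 h (SD, n = 16), 725 ± 263 at 24-48 h and 809 ± 225 at 72-168 h (n = 12 each). The differences from control were 2.88 ± 0.24 (7.36-fold), 2.52 ± 0.25 (5.72-fold) and 2.72 ± 0.25 (6.58-fold), with 13 h highest at 3.08 ± 0.30 and 24 h lowest at 1.89. Between treated windows no change passed, with -0.36 at 24-48 h against 6-18 h (adjusted p = 0.126) and -0.16 ± 0.16 at 72-168 h (adjusted p = 0.53).

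**Figure D2:**
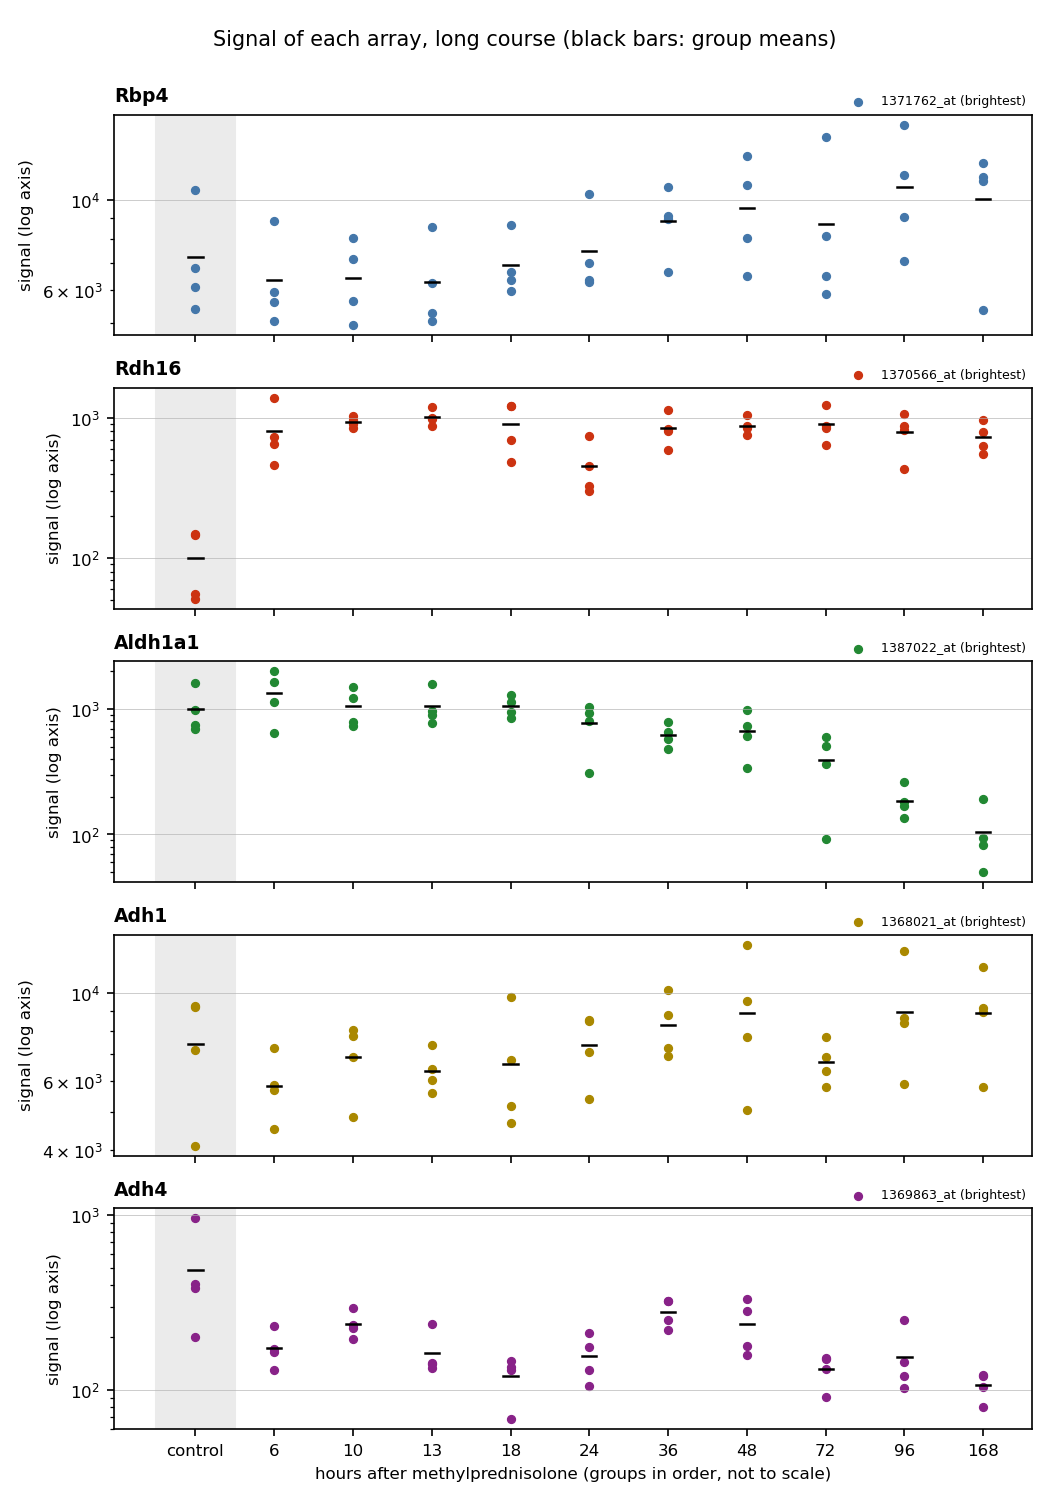
Signal of each array in the long course for the 5 genes, on a log axis, with groups in order of time from control to 168 h and black bars at the group means. All treated Rdh16 arrays lie above its 4 controls, and Aldh1a1 falls in steps from 72 h to 168 h.

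Aldh1a1, a cytosolic aldehyde dehydrogenase that makes retinoic acid from retinal, was lower at 4-8 h of the short course and again late in the long course. Short-course controls gave 8445, 3863, 6899 and 7047, and 0.75 h arrays 9795, 9754 and 8617. At 4 h the arrays gave 4257, 3092 and 3335, at 7 h 2170, 2108 and 858, and at 8 h 2216, 1742 and 759. The arrays at 7 and 8 h all lay below the dimmest control, whereas those at 6 h, with 2467, 6022 and 5354, did not. Later arrays gave 1991 and 3255 at 12 h, 4156, 4656 and 6229 at 48 h and 5520 and 8785 at 72 h. The mean was 6563 ± 1930 in the controls (SD, n = 4) and 3018 ± 1435 at 4-8 h (n = 17).

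Aldh1a1 differed from control by 0.28 ± 0.29 at 0.25-0.75 h, -1.21 ± 0.27 at 4-8 h (17 of 17 arrays), -0.85 ± 0.32 at 12-18 h and -0.23 ± 0.30 at 30-72 h, with the lowest time at 8 h (-2.11 ± 0.37). Without the 9 arrays the value at 4-8 h was -0.78. The steps between treated windows share the arrays whose values chose the gene. Aldh1a1 fell by 1.49 ± 0.20 from 0.25-0.75 h to 4-8 h (adjusted p = 3.14e-06, 17 of 17). It rose again by 0.98 ± 0.22 at 30-72 h (adjusted p = 0.000604, 7 of 7). The step to 12-18 h did not pass (0.36 ± 0.25, adjusted p = 0.254).

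Long-course Aldh1a1 controls gave 983, 696, 1616 and 749, and 6 h arrays 1995, 1634, 639 and 1130. At 48 h the arrays gave 609, 979, 338 and 735, at 72 h 597, 365, 505 and 92.1, at 96 h 261, 135, 180 and 169, and at 168 h 50.1, 81.9, 93.7 and 192. Every array from 72 h on lay below every control and below every 6-18 h array. Means were 1011 ± 422 in the controls (SD, n = 4), 1131 ± 386 at 6-18 h (n = 16), 686 ± 235 at 24-48 h and 227 ± 175 at 72-168 h (n = 12 each). The difference from control was 0.17 ± 0.31, -0.54 ± 0.32 (10 of 12 arrays) and -2.21 ± 0.32 (12 of 12) in the 3 windows, and -1.46, -2.21 and -2.95 ± 0.39 at 72, 96 and 168 h. Against 6-18 h, Aldh1a1 fell by 0.71 ± 0.21 at 24-48 h (adjusted p = 0.0151, 12 of 12) and by 2.37 ± 0.21 at 72-168 h (adjusted p = 9.99e-11, 12 of 12). Among the dim arrays alone the first of these did not pass (-0.52, adjusted p = 0.124) and the second did (-2.32, adjusted p = 4.52e-06).

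Adh1, the main hepatic alcohol dehydrogenase, was lower through the first hours of the short course and came back by 18 h. Controls gave 9738, 7142, 25831 and 17623, a wide spread. At 0.25 h the arrays gave 6606, 3570 and 7340, at 2 h 4936 and 4571, and at 6 h 5271, 6964 and 6506. These times lay mostly below the dimmest control, as did all arrays at 0.75 and 8 h. Other times of the same windows overlapped the controls. Every array at 1 h (from 7585) and at 5.5 h (from 8273) lay above the dimmest control. So did the brightest arrays at 0.5 h (9911), 4 h (10014.5), 5 h (8127) and 7 h (9106). At 18 h the arrays gave 13130, 16975 and 23196, at 30 h 9958 and 5161 and at 72 h 16745 and 21866. The difference from control was -1.26 ± 0.27 in the first window and -0.95 ± 0.25 at 4-8 h, then -0.10 ± 0.31 at 12-18 h and -0.19 ± 0.29 in the last window. Without the 9 arrays of low correlation the value at 4-8 h was -0.57. From 0.25-0.75 h to 4-8 h it did not pass (0.31 ± 0.19, adjusted p = 0.279). It rose from 4-8 h by 0.85 ± 0.23 at 12-18 h (adjusted p = 0.00562, 5 of 5 arrays) and by 0.76 ± 0.21 at 30-72 h (adjusted p = 0.00375, 6 of 7). Without those 9 arrays the latter did not pass (0.57, adjusted p = 0.0671). The second probe set, X72792cds_s_at, rose by 1.61 ± 0.28 (adjusted p = 6.44e-05) and 1.45 ± 0.25 (adjusted p = 2.21e-05), and its 4-8 h signals, 1887 to 5568, did not overlap those at 12-18 h, 9002 to 11859, or at 30-72 h, 5947 to 13124.

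Adh1 differed little from control in the long course. Controls gave 7154, 4103, 9250 and 9209 and 168 h arrays 5792, 9150, 11618 and 8981. The window differences were -0.17, 0.16 and 0.16, with errors of 0.21 to 0.22. Adh1 did not pass at 24-48 h (0.34, adjusted p = 0.106) or 72-168 h (0.33 ± 0.14, adjusted p = 0.0988) against 6-18 h. The latter passed when the array titled 96 h replicate 1 was placed at 72 h, where its description puts it (0.38, adjusted p = 0.0459), and without 168 h replicate 1 (adjusted p = 0.0443), 18 h replicate 4 (0.0469) or 96 h replicate 1 (0.0474). The former passed without 48 h replicate 1 (0.42, adjusted p = 0.0351).

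Adh4, an alcohol dehydrogenase active on retinol and longer alcohols, was low at 0.25 and 0.5 h and from 2 to 18 h of the short course. It was mostly back at control signals from 30 h, while in the long course it was low throughout. Short-course controls gave 764, 739, 1458 and 1240. At 0.5 h the arrays gave 248, 389 and 120, at 0.75 h 731, 1180 and 699 and at 1 h 711, 203 and 1128. At 2 h they gave 56.3 and 88.3, at 4 h 108, 311 and 29.7, at 6 h 133, 500 and 255 and at 8 h 231, 263 and 32.6. All arrays from 2 to 18 h lay below the dimmest control, as did those at 0.25 and 0.5 h. At 12 h they gave 373 and 402, at 18 h 510, 495 and 465, at 30 h 938 and 1401 and at 72 h 1091 and 1343. The mean was 1050.3 ± 357 in the controls (SD, n = 4), 221 ± 138 at 4-8 h (n = 17) and 992 ± 305 at 30-72 h (n = 7).

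The differences of Adh4 from control were -1.36 ± 0.48, -2.08 ± 0.55, -2.31 ± 0.45 (17 of 17 arrays), -1.15 ± 0.55 and -0.01 ± 0.51 in the 5 windows, with 2 h lowest at -3.33 ± 0.70. Adh4 rose from 4-8 h to 30-72 h by 2.30 ± 0.37 (4.91-fold, adjusted p = 8.43e-06, 7 of 7), with no overlap: the brightest 4-8 h array was at 500 and every 30-72 h array lay above it, up to 1401. It was also higher at 12-18 h than at 4-8 h (1.16 ± 0.42, adjusted p = 0.0303, 5 of 5), a call lost without the 9 arrays (0.63, adjusted p = 0.138) and without 12 h replicate 1 (adjusted p = 0.0864) or 2 (0.106), 18 h replicate 1 (0.052) or 2 (0.0528), or 5 h replicate 2 (0.0627). The fall from 0.25-0.75 h to 4-8 h was -0.95 ± 0.33 (adjusted p = 0.0431, 15 of 17). It passed no longer with quantile normalization (adjusted p = 0.0517), median centring (0.0501), no filter (0.0579), or without the 9 arrays (-0.55, adjusted p = 0.181). Any 1 of 16 left-out arrays also ended it, namely 0.25 h replicates 1 and 3, 0.5 h 1 and 2, all 3 at 0.75 h, 4 h 1 and 3, 5 h 2, 5.5 h 1 and 2, 6 h 1 and 3, 7 h 3 and 8 h 3 (adjusted p 0.0509 to 0.132).

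Long-course Adh4 controls gave 960, 200, 406 and 384, so that 1 control was far brighter than the rest. At 6 h the arrays gave 233, 165, 172 and 129, at 18 h 130, 68.3, 146 and 136 and at 36 h 221, 322, 325 and 251. At 72 h they gave 151, 91.6, 132 and 153, and at 168 h 121, 104, 79.8 and 123. Every treated array lay below the control mean, but at 36 h all lay above the dimmest control. The window differences were -1.19 ± 0.22, -0.88 ± 0.22 and -1.51 ± 0.22, with all arrays of each window on that side. Without the bright control, replicate 1, they were -0.81, -0.51 and -1.14. No step between treated windows passed, with 0.31 at 24-48 h (adjusted p = 0.163) and -0.32 ± 0.15 at 72-168 h (adjusted p = 0.119). At 72 h, a time both courses share, Adh4 stood at 0.26 ± 0.70 against the short-course controls and at -1.48 ± 0.27 against the long-course controls. At the same time Aldh1a1 stood at 0.14 and -1.46, and Rdh16 at 0.08 ± 0.83 and 2.87. The courses use different array designs and controls, and these differences between them were not tested.

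**Figure D3:**
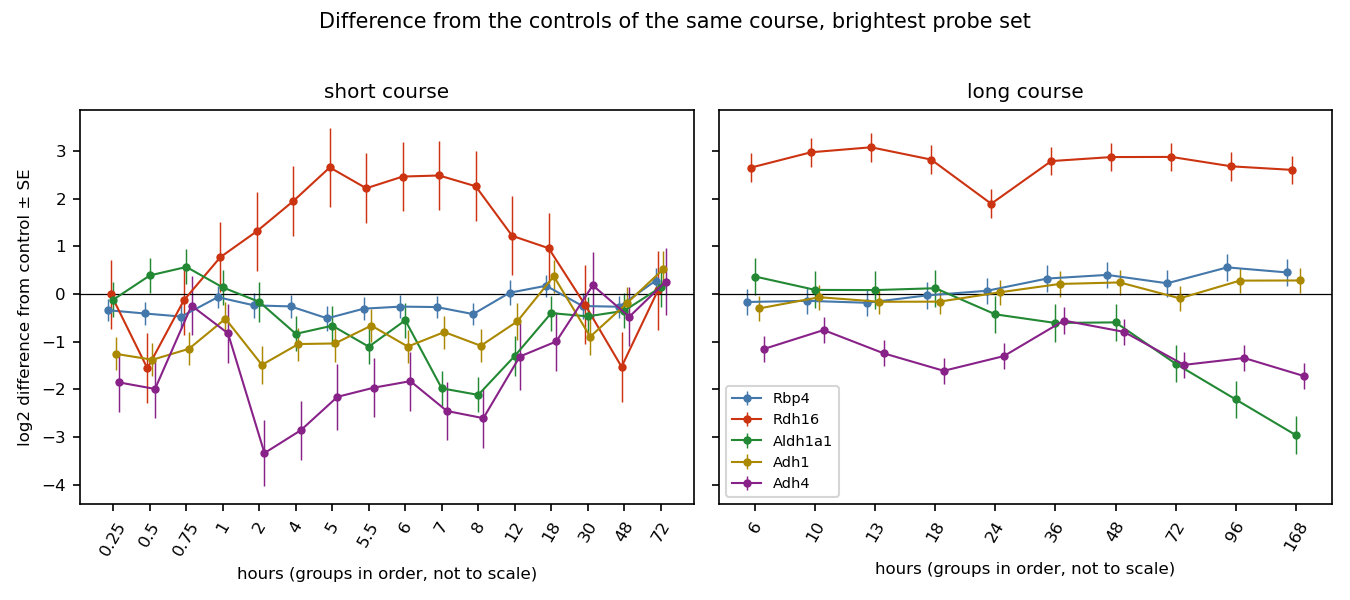
Difference of each time group from the controls of its own course on the log2(signal + 32) scale, with bars of 1 standard error, for the brightest probe set of each gene. In the short course Rdh16 peaks at 2.65 and Adh4 is lowest at -3.33, and both are near 0 at 72 h, while in the long course Rdh16 stays between 1.89 and 3.08 and Aldh1a1 reaches -2.95.

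The counts that follow share the treated arrays with the values by which the 5 genes were chosen. They are therefore no test of these genes against all probe sets. Counted over the 5 genes, 3 passed from 0.25-0.75 h to 4-8 h (Rdh16 up, Aldh1a1 and Adh4 down), where 18.4% of all 6118 probe sets tested passed in either direction. From 4-8 h to 12-18 h, 4 passed (Rbp4, Adh1 and Adh4 up, Rdh16 down), against 36.2% of all. From 4-8 h to 30-72 h, 4 passed (Aldh1a1, Adh1 and Adh4 up, Rdh16 down), against 36.7% of all. Of the 5, 1 in the long course, Aldh1a1, passed from 6-18 h to 24-48 h, against 17.2% of 11106 probe sets, and 2, Aldh1a1 down and Rbp4 up, passed from 6-18 h to 72-168 h, against 21.2%. The median of all probe sets at 12-18 h against 4-8 h was -0.21, and 0.02 after median centring. Relative to that median, a rise there is larger than its value and a fall smaller. Other scalings need not move a gene the same way. With quantile normalization the rise of Rbp4 went from 0.44 to 0.14 and the fall of Rdh16 from -1.25 to -1.13. Calls in that comparison split into 629 higher and 1587 lower as deposited and into 1104 and 586 after centring.

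**Figure D4:**
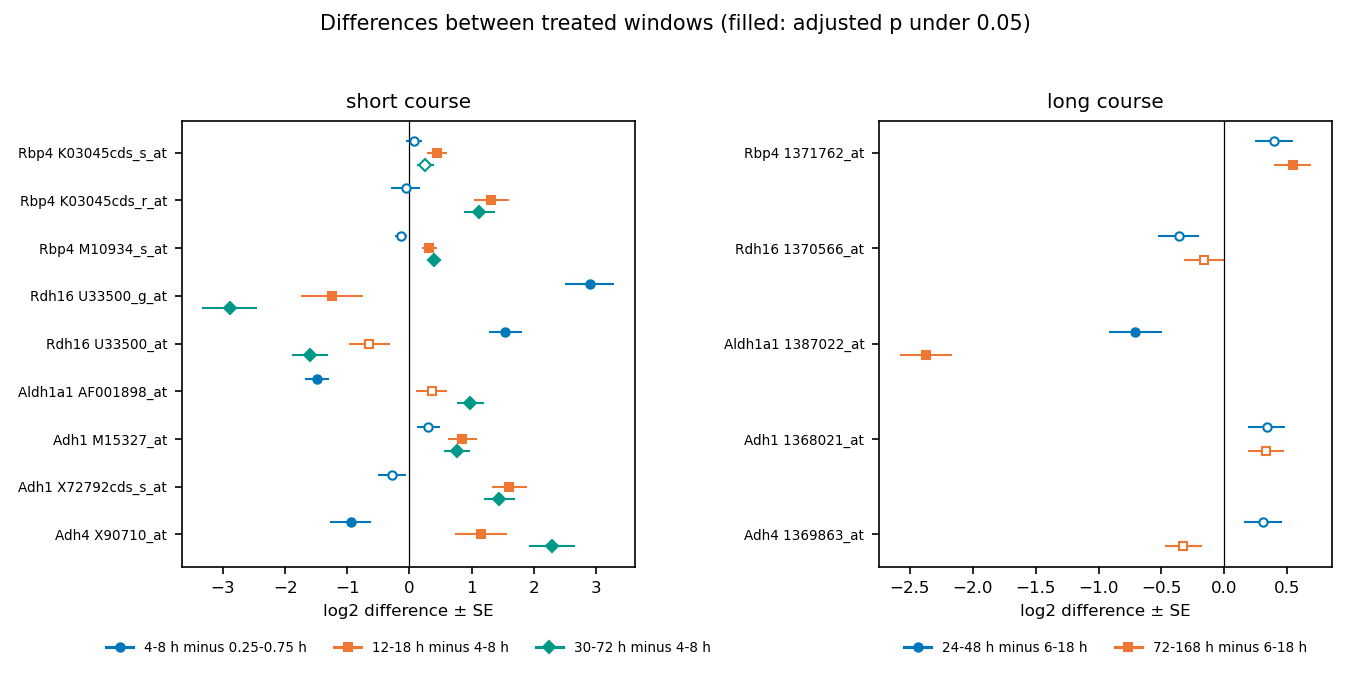
Log2 differences between treated windows for every probe set of the 5 genes, with bars of 1 standard error and filled markers where the adjusted p was under 0.05. In the short course Rdh16 stands at 2.90 and later at -2.89, and Aldh1a1 stands at -2.37 in the last window of the long course.

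Of 58 other genes of these pathways, listed by role, 27 had a named probe set in the short course and 23 were tested. Against control none passed at 0.25-0.75 h, 12-18 h or 30-72 h, where 3.42%, 0.997% and 0.0981% of all probe sets did. At 4-8 h 1 was higher and 7 were lower, or 34.8%, against 27% of all (16.4% higher, 10.5% lower, or 1005 and 645 probe sets, which became 659 and 887 after median centring), and the list's median was -0.24 against 0.10 for all probe sets. At 1-2 h 3 of 23 passed, or 13%, against 12.2% of all: Rdh7 (0.59, adjusted p = 0.0496), the receptor Rxrg (-1.46, adjusted p = 0.0398) and Aldh5a1 (-0.88, adjusted p = 0.0182). With 1 array left out, Rdh7 passed in only 13 of 47 fits, Rxrg in 42 and Aldh5a1 in 43. None of those 3 passed with the replicate number as a block. Nor did any pass without the 9 arrays of low correlation, where Rdh7 stood at 0.94 (adjusted p = 0.0904), Rxrg at -1.57 (0.146) and Aldh5a1 at -0.97 (0.101).

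Among the retinol dehydrogenases at 4-8 h, Rdh7, a close relative of Rdh16 that lies near it, was higher by 0.65 ± 0.17 (adjusted p = 0.00366), with 854 to 1895 against 577 to 1105 in the controls. Rdh10, a retinol dehydrogenase essential in the embryo, fell (-1.24 ± 0.29, adjusted p = 0.00186), with 25.5 to 226 against 151 to 476. Hsd17b6, a dehydrogenase of retinol and steroids, did not pass (0.42, adjusted p = 0.218). Of 5 receptors, Rarb (-1.28 ± 0.43, adjusted p = 0.0237) and Rxrg (-1.43 ± 0.39, adjusted p = 0.00644) fell, while Rara (0.06), Rxra (-0.02) and Rxrb (0.15) did not pass. Of 5 alcohol-oxidizing genes, Adh5, the formaldehyde-handling class next to Adh4, fell (-0.71 ± 0.21, adjusted p = 0.0121; 962 to 2810 against 2758 to 3279), as did the ethanol-oxidizing P450 Cyp2e1 (-0.61 ± 0.21, adjusted p = 0.0262). Of 7 aldehyde dehydrogenases, the mitochondrial Aldh2, which clears acetaldehyde, fell (-0.42 ± 0.13, adjusted p = 0.0167), and so did Aldh5a1 (-0.81 ± 0.20, adjusted p = 0.00321). The carriers Ttr (-0.24, adjusted p = 0.406) and Crabp1 (0.19) and the retinoid P450 Cyp2c22 (0.06) did not pass. Without the 9 arrays, which include 2 controls, Rdh7 and Rarb were the 2 of 23 that still passed. Rxrg then stood at -1.15 (adjusted p = 0.135), Aldh5a1 at -0.68 (0.0972), Adh5 at -0.50 (0.11), Aldh2 at -0.44 (0.175), Cyp2e1 at -0.43 (0.281) and Rdh10 at -0.68 (0.247), so that the Rdh10 difference was the one that shrank most among them. A replicate block ended the calls of Cyp2e1 (-0.57, adjusted p = 0.1) and Aldh2 (-0.30, adjusted p = 0.162). Cyp2e1 was also lost with quantile normalization (-0.28, adjusted p = 0.149) and without control replicate 3 (adjusted p = 0.329) or 4 (0.0867), Aldh2 without control replicate 3 (0.0608) or 4 (0.151), and Rarb without control replicate 1 (0.0991), 2 (0.0533) or 3 (0.0686).

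Counted in either direction, these genes passed between treated windows about as often as all probe sets. At 30-72 h against 4-8 h, 9 of 23 were higher and 1 lower, or 43.5%, near the 36.7% of all probe sets. Of all probe sets 15.2% were higher and 21.5% lower there. The list's median was 0.32 against -0.06 for all probe sets. Rxrg rose by 1.88 ± 0.32 (adjusted p = 2.23e-05), Rdh10 by 1.07 (adjusted p = 0.000553) and Adh5 by 0.83 ± 0.17 (adjusted p = 0.000308), and Rdh7 fell by 0.65 ± 0.14 (adjusted p = 0.000331). Adh5 signals at the 2 windows did not overlap, at 3022 to 3547 against 962 to 2810. The peroxide-splitting Cat (0.93, adjusted p = 0.00438) and the fatty aldehyde dehydrogenase Aldh3a2 (1.37, adjusted p = 0.00791) also rose, the latter not without the 9 arrays (0.81, adjusted p = 0.165). At 12-18 h against 4-8 h 6 were higher and 3 lower, or 39.1% against 36.2% of all (10.3% higher, 25.9% lower). They were led by Rxrg (1.63, adjusted p = 0.000992) and Akr1a1, an aldehyde reductase (0.56, adjusted p = 0.000196). From 0.25-0.75 h to 4-8 h 1 was higher, Rdh7 (0.74, adjusted p = 6.21e-05), and 4 lower, Rarb, Rxrg, Cat and Aldh1l1. This was 21.7% against 18.4% of all (9.63% higher, 8.79% lower). Without the 9 arrays Cat (-0.50, adjusted p = 0.111) and Aldh1l1 (-0.57, adjusted p = 0.158) did not pass, and Aldh1l1 was also lost without any 1 of 14 arrays.

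On the long-course array 44 of the 58 genes had a named probe set and 39 were tested. Against control 2 passed at 6-18 h, or 5.13% against 9.31% of all probe sets, 2 at 24-48 h, or 5.13% against 5.23%, and 4 at 72-168 h, or 10.3% against 10.8%. Hsd17b6 was higher at 24-48 h by 1.42 ± 0.28 (adjusted p = 0.000941) and at 72-168 h by 1.42 ± 0.28 (adjusted p = 0.000461), with 2580 to 6813 against 565 to 3250. At 6-18 h it passed at 0.88 ± 0.27 (adjusted p = 0.0317), but not without control replicate 1 (0.91, adjusted p = 0.0781) or 2 (0.35, adjusted p = 0.43). The size of the 2 later differences rests on the same controls. Both passed in all 44 fits with 1 array left out, with adjusted p up to 0.0414 and 0.0209. Dhrs3, a retinal reductase known as a retinoic acid target, fell at 6-18 h by 0.79 ± 0.18 (adjusted p = 0.00289), with 186 to 564 against 410 to 757, and did not pass later. At 72-168 h Rdh7 (0.45 ± 0.12, adjusted p = 0.012) and Adhfe1, a hydroxyacid transhydrogenase of the mitochondrion (0.64 ± 0.14, adjusted p = 0.00143), were also higher, Rdh7 not without control replicate 2 (0.0708) or 3 (0.0894). Aox1, an aldehyde oxidase, was lower (-1.16 ± 0.35, adjusted p = 0.025), with 217 to 820 against 972 to 1514, but did not pass among the dim arrays alone (-0.97, adjusted p = 0.129) or without control replicate 1 (0.0681) or 3 (0.107). Rbp7, a retinol carrier of the cell, passed at 24-48 h (0.87, adjusted p = 0.0464) from dim controls of 12.4 to 25.2, in only 20 of 44 fits with 1 array left out, and not among the dim arrays alone (0.84, adjusted p = 0.158). None of the 6 receptors passed in any long-course window, Rarb and Rxrg being at -0.17 and 0.05 at 72-168 h.

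Against 6-18 h, 8 of the 39 genes were higher at 24-48 h and 8 at 72-168 h, 20.5% each, and none lower. Of all probe sets 17.2% passed at 24-48 h (7.34% higher, 9.89% lower) and 21.2% at 72-168 h (9.07% higher, 12.1% lower). Adhfe1 rose by 0.34 (adjusted p = 0.00719) and 0.65 (adjusted p = 1.58e-06), Dhrs3 by 0.80 (adjusted p = 7.68e-06) and 0.65 (adjusted p = 0.000113) and Aldh9a1, an aminoaldehyde dehydrogenase, by 0.57 (adjusted p = 0.00022) and 0.54 (adjusted p = 0.000314). Hsd17b6 passed at 72-168 h (0.53, adjusted p = 0.0358) but not with the spike-in batch in the fit (0.42, adjusted p = 0.0825), among the dim arrays alone (0.21, adjusted p = 0.681) or without any 1 of 13 arrays, the highest adjusted p being 0.0805 without 72 h replicate 4.

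**Figure D5:**
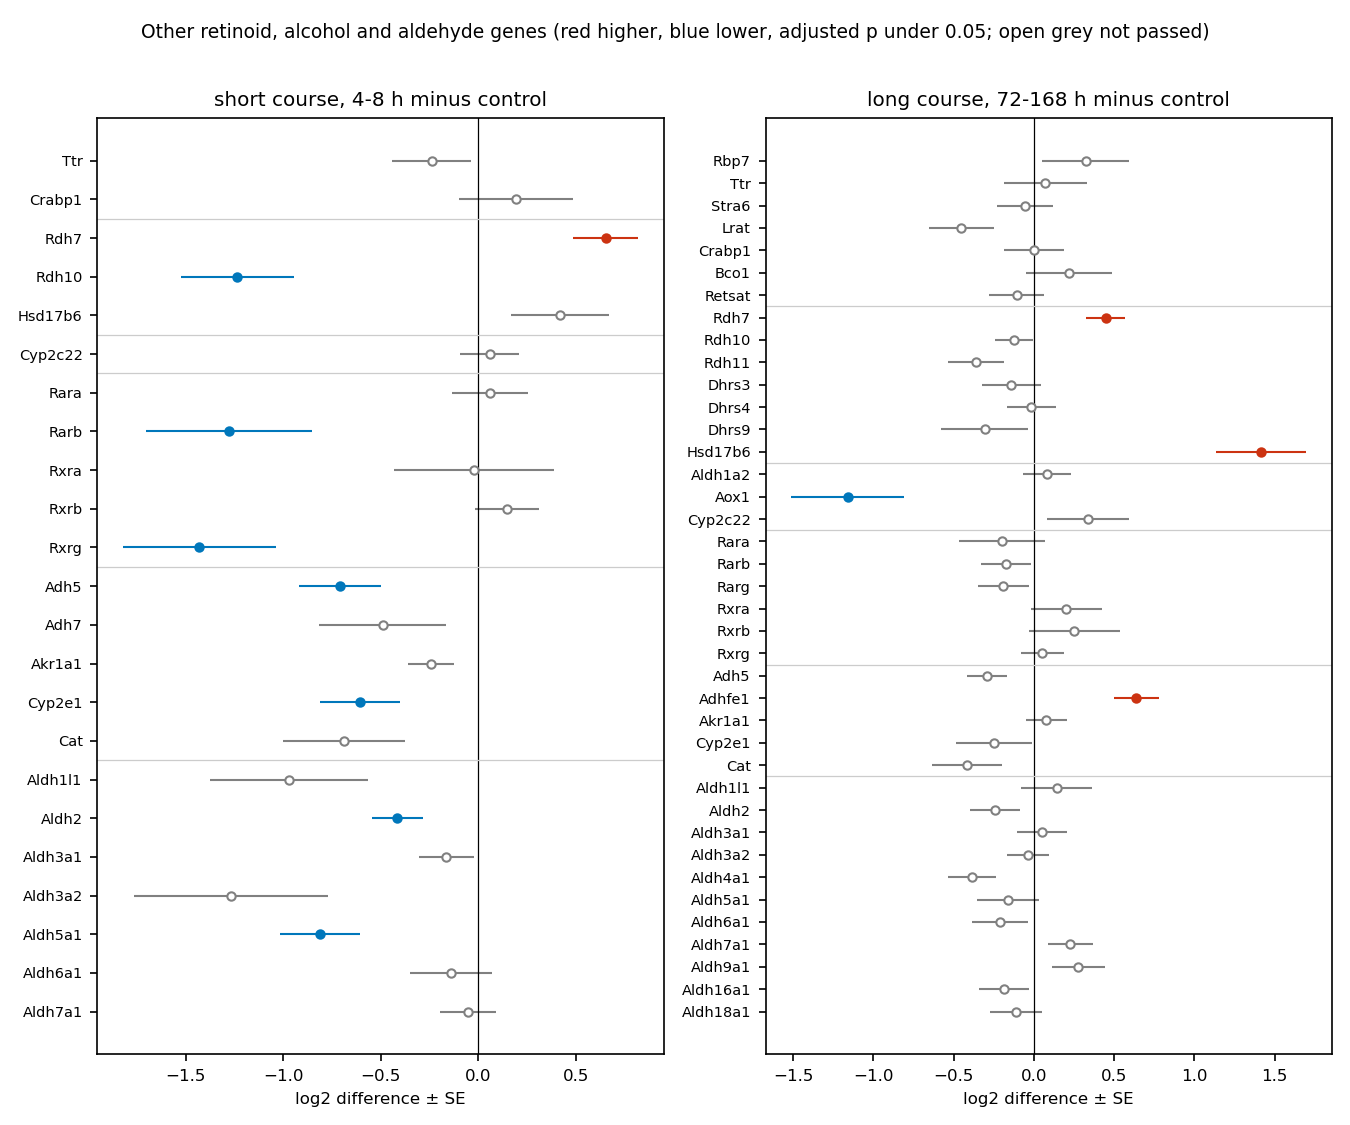
Log2 difference from control, with bars of 1 standard error, of each tested retinoid, alcohol and aldehyde gene, at left for the short course (4-8 h) and at right for the long course (72-168 h), grouped by role. Red (higher) and blue (lower) mark an adjusted p under 0.05: 1 higher and 7 lower of 23, and 3 higher and 1 lower of 39.

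The genes whose time-group means followed each of the 5 most closely are given by Pearson's r, as a description over 17 short-course and 11 long-course groups, which share arrays and controls. In the short course Rdh16 was closest to Rnf4 (0.90), Gnpat (0.88) and Por (0.88), and Aldh1a1 to the glutathione transferases Gsta3 (0.91) and Gsta4 (0.90) and to Agxt2 (0.89). Adh4 was closest to Nat8b and to its neighbour Adh5 (both 0.95) and then to Washc3 (0.94). Adh1 was closest to Mgst1 (0.90), Apoa1 (0.90) and Apoh (0.88), and Rbp4 to Mgst1 (0.94), Serpina1 (0.93) and Rps29 (0.93). Rbp4 and Adh1 followed each other at 0.84, and Rdh16 ran opposite to Aldh1a1 (-0.68) and Adh4 (-0.59). Over the long-course groups Rdh16 was closest to Edem1 (0.96), Vmp1 (0.94) and Mtdh (0.94), and Aldh1a1 to Ces1c (0.98), Serpina6 (0.96) and Ephx1 (0.95). Adh4 was closest to Atp6v1c1 (0.88), Cnn3 (0.87) and Exosc8 (0.87), Adh1 to Selenop (0.96), Mgst1 (0.96) and Rup2 (0.93), and Rbp4 to Myh1 (0.98), Apoh (0.98) and Masp2 (0.96). Rbp4 and Adh1 again followed each other, at 0.90.

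The label of liver fits the hepatocyte markers, whose summed signal was 47838 to 178757 in the short-course and 50831 to 95039 in the long-course controls. In whole liver, fewer cells of a type and less RNA per cell cannot be told apart. At 4-8 h against control 0 of 6 hepatocyte markers were higher and 2 lower, 2 of 2 neutrophil markers were higher (S100a8 by 2.98 and S100a9 by 2.03), 2 of 4 endothelial markers higher and 1 lower, 1 of 6 stellate markers higher, 1 of 2 Kupffer markers lower (Clec4f, -1.39) and 1 of 3 cholangiocyte markers lower, where 27% of all probe sets passed. At 0.25-0.75 h and at 1-2 h against control, 2 of 2 neutrophil and 1 of 4 endothelial markers were higher and no other marker passed. Of all probe sets 3.42% and 12.2% passed there. The median log2 difference of the hepatocyte markers was -0.55 and -0.18 in these windows, and -0.33 at 4-8 h. Summed neutrophil signal was 106 to 606 in the controls, 284 to 5935 at 0.25-0.75 h and 1150 to 5769 at 1-2 h. It was 499 to 4575 at 4-8 h and 169 to 1028 at 30-72 h. Summed signal of the 6 stellate markers was 6580 to 6968 in the controls and 4364 to 10562 at 4-8 h. These were Col1a1, Col3a1, Reln, Ngfr, Acta2 and Dcn, without Lrat or Des, so the sum was not tied to vitamin A storage. From 0.25-0.75 h to 4-8 h, 2 of 4 endothelial markers were higher and 1 lower, 1 of 3 cholangiocyte markers was lower, and no hepatocyte, stellate, Kupffer or neutrophil marker passed, against 18.4% of all probe sets. Against 4-8 h, 2 hepatocyte and 1 endothelial marker were higher and 2 endothelial, 1 stellate and 1 neutrophil marker lower at 12-18 h (36.2% of all passed). At 30-72 h 1 hepatocyte, 1 Kupffer, 1 endothelial and 1 cholangiocyte marker were higher and 2 endothelial, 2 neutrophil and 1 stellate marker lower (36.7% of all). At 6-18 h of the long course against control, 1 of 3 endothelial markers was higher. Lower there were 2 of 5 Kupffer, 1 of 2 neutrophil and the 1 cholangiocyte marker, against 9.31% of all probe sets passing. In the long course at 24-48 h against control, 4 of 5 Kupffer, 1 of 7 stellate and 1 of 2 neutrophil markers were lower. No other marker passed there, against 5.23% of all probe sets. Against 6-18 h that window had 1 hepatocyte marker higher and 2 Kupffer, 2 neutrophil, 1 stellate and 1 endothelial marker lower (17.2% of all passed). At 72-168 h against control in the long course, where 10.8% of all probe sets passed, 0 of 6 hepatocyte markers passed, 2 of 7 stellate, 2 of 5 Kupffer, 1 of 2 neutrophil and the 1 cholangiocyte marker were lower, and 0 of 3 endothelial markers passed. Against 6-18 h in the same window 1 hepatocyte and 1 stellate marker were higher, 2 stellate, 1 Kupffer, 1 endothelial and 1 cholangiocyte marker lower, and no neutrophil marker passed (21.2% of all did). Summed stellate signal was 1445 to 2103 in the controls and 961 to 1675 at 72-168 h. No tested marker was at 0 on every array. The log2 ratio of the 3′ to the 5′ probe set of Gapdh, a sign of RNA quality, had a median of 0.08 in the long-course controls, 0.15 at 6-18 h, 0.26 at 24-48 h and 0.34 at 72-168 h, and 0.18 in the short-course controls and -0.02 at 4-8 h. The part of these markers and of the ratio in the results was not tested.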

How the data were processed

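Liver RNA of 91 samples was measured on Affymetrix arrays of 2 designs. Each probe set has 1 value per array, which the authors deposited as an intensity on a linear scale. How images were read and probes summarised is not given in the sources used here. By the files, all short-course arrays but 1 (6 h replicate 3, rescaled here) share a 2% trimmed mean of 800, and all long-course arrays one of 150. No pair of arrays was identical. The array titled 96 h replicate 1 of the long course is described as 72 h and was kept by its title; 48 h replicate 1 of that course carries the other course's wording and was kept likewise. The number of arrays limits the precision.

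Control probe sets (59 and 57) and probe sets under the 30th percentile of mean signal were left out, leaving 6118 and 11106 tested. A gene was named only from a probe set with 1 symbol (7018 of 8799 and 12789 of 15923; 308 and 312 had several, 1473 and 2822 none), updated through RefSeq. Group means of log2(signal + 32) were fitted by course, over all its arrays, in limma 3.58.1 (R 4.3.3), with eBayes and a variance trend, and windows were unweighted means of times. Benjamini-Hochberg adjusted p-values are over all tested probe sets, with a threshold of 0.05. On simulated data with known changes, the 5 comparisons of treated windows recovered 83% to 98.5% of log2 changes of 1 and 32% to 81% of changes of 0.5. False calls made up 0% to 10% of the calls. The simulated noise was independent from array to array and held no spike-in batch and no arrays of low correlation.

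The 5 genes, the windows, and the lists of pathway genes (carriers, retinol dehydrogenases, retinal oxidation, receptors, alcohol oxidation, aldehyde dehydrogenases) and of cell type markers (hepatocyte, stellate, Kupffer, endothelial, cholangiocyte, neutrophil) were chosen with earlier results of these data known. From each pathway list, up to 4 genes per window with the largest change past the threshold could be named, or the largest changes where none passed, and 3 genes per gene for likeness. Other added constants (16 and 64), no filter or the 50th percentile, quantile normalization, median centring, a replicate block, array weights, the mean over probe sets, the spike-in batch (a log2 signal of 9 divides it), leaving out arrays of low correlation and each single array were tried.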

Additional observations from a re-analysis of the deposited data

Results flagged for a closer look

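In the long course, Adh4 at 13 h gave 237 in replicate 4 against 134 to 142 in the other 3 arrays, and at 18 h it gave 68.3 in replicate 2 against 130 to 146, each an array far from the rest of its group. Rbp4 at 168 h gave 5381 in replicate 1 against 11117 to 12328 in the others. In all, 64 groups of 4 arrays were compared this way and 3 stood out, where chance alone would pick about 1 in 20. At 72 h every short-course array of Adh4 lay above its control mean and every long-course array below it. The differences, 0.26 and -1.48, lie 1.74 apart. This was the comparison flagged among 20 at 4 shared times, although Rdh16 lay further apart at 72 h, as given above. The difference between the courses was not tested.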

How the results depend on the processing

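Counts of other pathway genes past the threshold moved at 1-2 h against control (3) to 5 with the filter at the 50th percentile and to 0 with a replicate block or without the 9 arrays of low correlation, and at 4-8 h (8) to 2 without those arrays. In the long course they moved at 6-18 h (2) to 1 with array weights and at 24-48 h (2) to 1 with a constant of 64, no filter or the 50th percentile. Of the 5 genes, 4 passed at 12-18 h against 4-8 h, 2 with quantile normalization and 1 without the 9 arrays. At 24-48 h against 6-18 h 1 passed, and 2 with quantile normalization, median centring, a replicate block, array weights or the spike-in batch in the fit. At 72-168 h against 6-18 h 2 passed, and 1 among the dim arrays alone. With single arrays left out, the pathway counts ran from 0 to 2 at 0.25-0.75 h, 0 to 5 at 1-2 h and 5 to 9 at 4-8 h of the short course, and from 1 to 5, 1 to 2 and 2 to 6 in the long-course windows, and the counts over the 5 genes from 2 to 3, 1 to 4 and 4 to 4 in the short course and from 1 to 3 and 2 to 3 in the long. Rbp4 changed sign from 0.25-0.75 h to 4-8 h, to -0.085 with quantile normalization and -0.043 as a mean over probe sets, and passed at 30-72 h against 4-8 h as such a mean (0.60, adjusted p = 0.000202). Adh4 passed at 72-168 h against 6-18 h with array weights (-0.38, adjusted p = 0.0497).

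Replicate numbers were not taken as pairs, although every long-course replicate 4 is among the bright spike-in arrays: same-numbered arrays of different times had a mean correlation of deviations of -0.006 (short course) and 0.052 (long course), and 88 of 338 and 75 of 220 pairs were over 0.1. With the block Rbp4 passed at 24-48 h against 6-18 h (adjusted p = 0.00784). With the number as a replicate block, 3, 3 and 4 of the 5 genes passed in the short-course comparisons of treated windows and 2 and 2 in the long course, and 0, 0, 6, 0 and 0 pathway genes passed against control in short-course windows and 2, 2 and 4 in long-course windows. Rdh16 and Aldh1a1 from 0.25-0.75 h to 4-8 h, Rdh16, Aldh1a1 and Adh4 from 4-8 h to 30-72 h, and Aldh1a1 from 6-18 h to 72-168 h kept their calls under every alternative run. So did Adh1 from 4-8 h to 12-18 h (adjusted p up to 0.0339). All of these calls rest on the treated arrays whose values chose the genes. Dim signal limits Rbp7, whose long-course controls were at 12.4 to 25.2.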
